A study of Mus musculus with 2 samples.

Results

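A set of 9 neuronal genes, of the 32285 genes listed, was followed through the 12 cell clusters of EYFP+ cells sorted from the adult mouse dentate gyrus (DG): Lsamp, Rbfox1, Nrxn3, Kcnip4, Csmd1, Dlg2, Meg3, Snhg11 and Syt1. They were chosen by their levels in these same data, because Lsamp and Rbfox1 were highest in the cluster that the depositors call IN2. Their levels in IN2 against the other clusters are therefore a description and not a finding. All 9 had at least 50 UMIs (unique molecular identifiers, 1 per captured RNA molecule) over all cells, the minimum for the 13722 genes with which they were compared.

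The cells came from 1 WT library and 1 iKD library, each a pool of 5 mice, so no difference between genotypes has a replicate check and no test across samples was possible. Mice of both groups carried NestinCreERT2, which drives a tamoxifen (TAM) dependent recombinase from a Nestin promoter, and a ROSA-LoxSTOPLox-EYFP reporter. The iKD mice were Vegfa lox/lox and the WT mice were their Vegfa wt/wt littermates. At 7 to 10 weeks of age both groups received TAM at 180 mg/kg/d for 5 d, and cells were sorted 21 d later, so all cells compared here had passed through TAM and the EYFP gate. The WT library held 5543 cells with a median of 8051 UMIs and the iKD library 5261 cells with a median of 7080 UMIs. Intervals given below are 95% intervals for counting error alone, and they do not cover differences between cells, animals or libraries.

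The targeted gene, Vegfa, had a level of 0.0219 per 10,000 UMIs in WT (101 UMIs, interval 0.0178 to 0.0266) and 0.0133 in iKD (52 UMIs, interval 0.00994 to 0.0175) over the 8 clusters that the depositors named qNSC1, qNSC2, aNSCs, NSPCs, IPC1, IPC2, eNB and NB. In IN2 it was at 0.0685 in WT (9 UMIs) and 0.0849 in iKD (3 UMIs). Over the 8 clusters the counting intervals of the genotypes did not overlap, but they cover counting error alone. The IN2 counts are too few to compare the genotypes by. The study judged Vegfa too close to the detection floor to compare genotypes, and a 3′ tag can lie outside the part of the gene that was deleted. The cluster labels were checked against defining markers. In the 8 clusters, called so from here on, 10 microglia markers summed to a median of 362.6 per 10,000 UMIs, whereas 9 neural stem cell markers summed to a mean of 0.101 and 6 immature neuron markers to 0.00919. The cells labelled Astrocytes carried choroid plexus markers at a mean of 1078 per 10,000 and astrocyte markers at 1.15. IN is the study's short form for immature neurons, and the 6 immature neuron markers summed to a mean of 1.51 in IN2 and 0.0405 in IN1, with a median of 0 in both. Cluster names are therefore used only as names. The file labels are followed for qNSC1 and qNSC2, which a supplementary sheet of the study numbers the other way round. The 2 libraries shared 9 cell barcodes.

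Neurons use very long genes to encode many of the proteins that build and position synapses, and transcription of such a gene leaves long introns in the nucleus. The RNAs of Meg3 and Snhg11 are better known as noncoding transcripts that are abundant in neurons. Microglia, the resident macrophages of the brain, take up synaptic material and dead cells but are not known to rely on these genes.

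The label of long neuronal genes applied to 7 of the 9 by position in the mouse genome (GRCm38, GENCODE M21). Lsamp, an adhesion protein of the IgLON family on neuronal membranes, spans chr16:39984361-42181679 on the plus strand, 2197 kb. Rbfox1, an RNA-binding regulator of splicing, spans chr16:5885355-7411526 on the plus strand, 1526 kb. Nrxn3, a presynaptic adhesion receptor, spans chr12:88722876-90334935 on the plus strand, 1612 kb. Even Rbfox1, the shortest of these 3, was longer than 99.9% of the tested genes that have a span.

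The other long members lie on 4 further chromosomes. Dlg2, a scaffold of the postsynaptic density, spans chr7:90476672-92449247 on the plus strand, 1973 kb. Csmd1, a transmembrane protein that restrains complement, spans chr8:15892537-17535586 on the minus strand, 1643 kb. Kcnip4, an auxiliary subunit of Kv4 potassium channels, spans chr5:48389502-49524907 on the minus strand, 1135 kb. Syt1, the calcium sensor of synaptic vesicle fusion, is the shortest of these 7 and spans chr10:108497650-109010982 on the minus strand, 513 kb. Exons made up 0.288% to 1.62% of the span in these 7 genes.

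The remaining members are short genes. Meg3, a maternally expressed imprinted long noncoding RNA, spans chr12:109541001-109571726 on the plus strand, 30.7 kb with 58.9% in exons. Snhg11, a host gene of small nucleolar RNAs, spans chr2:158375638-158386145 on the plus strand, 10.5 kb with 81.1% in exons. Both are of ordinary length, with 59.0% and 27.5% of tested genes shorter.

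Promoter windows (RefSeq, GRCm38.p6, 250 bases before to 50 after a start) were available for 8 of the 9 genes, 17 windows in all, and 3 are printed because Meg3 had the most motif matches and Lsamp and Rbfox1 are the genes on which the set was selected. Capitals mark matches to the cAMP response element (TGACGTCA), a TATA box (TATAAA) or a CCAAT box (CCAAT), searched on both strands, and in the Meg3 window the TATA box and its reverse complement overlap. Csmd1 had no window.
Meg3, chr12:109540746-109541045, plus strand: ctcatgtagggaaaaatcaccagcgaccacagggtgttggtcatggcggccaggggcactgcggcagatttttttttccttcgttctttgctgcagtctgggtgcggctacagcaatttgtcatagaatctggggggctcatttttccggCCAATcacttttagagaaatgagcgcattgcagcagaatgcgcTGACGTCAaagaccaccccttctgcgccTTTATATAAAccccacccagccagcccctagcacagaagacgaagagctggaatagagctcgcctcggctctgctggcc
Lsamp, chr16:39984114-39984413, plus strand: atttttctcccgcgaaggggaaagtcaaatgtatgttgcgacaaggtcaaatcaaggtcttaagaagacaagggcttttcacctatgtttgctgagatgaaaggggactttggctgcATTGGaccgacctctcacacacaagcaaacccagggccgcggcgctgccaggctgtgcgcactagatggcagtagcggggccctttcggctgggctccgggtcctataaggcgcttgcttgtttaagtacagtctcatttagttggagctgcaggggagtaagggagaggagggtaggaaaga
Rbfox1, chr16:5884543-5884842, plus strand: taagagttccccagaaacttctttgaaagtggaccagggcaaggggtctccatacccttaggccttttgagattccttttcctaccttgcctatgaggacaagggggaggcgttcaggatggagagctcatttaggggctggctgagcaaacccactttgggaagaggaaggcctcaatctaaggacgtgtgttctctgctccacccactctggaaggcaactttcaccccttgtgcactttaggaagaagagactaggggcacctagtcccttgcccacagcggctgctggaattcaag

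The Meg3 window held all 3 motifs, the Lsamp window held a CCAAT box on the reverse strand and the Rbfox1 window held none. Over 32851 promoter windows of the same length, TGACGTCA was present in 1.79%, TATAAA in 13.6% and CCAAT in 37.4%. Among the 17 windows of the set, 1 held TGACGTCA, 2 held TATAAA and 6 held CCAAT. These are matches of letters only.

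Each gene was first measured in every cluster as a level, the mean over cells of counts per 10,000 UMIs. Levels are compared between cells for 1 gene at a time, not between genes, since any intronic reads in the counts would differ in number from gene to gene. All 9 genes were highest in IN2, a cluster of 288 cells (194 WT and 94 iKD). IN1, a cluster of 50 cells, came second for 8 of them, and the cluster named Undefined came second for Syt1. The level in IN2 was between 3.31 times (Rbfox1) and 10.8 times (Lsamp) the level of the second cluster.

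Lsamp was measured at 7.98 per 10,000 in WT IN2 cells (958 UMIs) and 5.79 in iKD IN2 cells (252 UMIs). In IN1 it was at 0.682 in WT and 0.627 in iKD, and in NB at 0.269 in WT and 0.0610 in iKD. A single WT cell held 39 of the 80 WT UMIs of NB, and without it the WT level there was 0.131, under the 0.212 of qNSC1. Over the 8 clusters together it was at 0.131 in WT and 0.0487 in iKD. Lsamp was thus high in IN2 in both libraries, and its IN2 levels stood above those of every other cluster. Pooled over genotypes, IN2 exceeded the 8 clusters by 6.17 on the log2 scale (interval 6.03 to 6.30), with 0.01 added to each level here and in all log2 ratios that follow unless stated.

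Rbfox1 differed from the rest of the set in being readily detected outside IN2. Its level was 4.51 in WT IN2 cells (500 UMIs) and 3.39 in iKD IN2 cells (141 UMIs). Over the 8 clusters it was 0.606 in WT (2653 UMIs) and 0.577 in iKD (2137 UMIs). The log2 ratio of IN2 to the 8 clusters was therefore the smallest of the set, 2.79 (interval 2.67 to 2.91). Among the 8 clusters Rbfox1 ranged from 0.410 in qNSC1 to 0.753 in aNSCs, pooled over genotypes. IN2 held 11.7% of all Rbfox1 UMIs but 62.1% of all Lsamp UMIs.

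The 3 remaining synaptic scaffold and adhesion genes followed Lsamp. Nrxn3 stood at 3.01 in IN2 and 0.0369 in the 8 clusters, a log2 ratio of 6.01. Dlg2 stood at 2.91 and 0.0455, a log2 ratio of 5.72. Csmd1 stood at 2.09 and 0.0383, a log2 ratio of 5.44. Nrxn3 was the one of these whose IN2 level was far higher in iKD (6.23, 428 UMIs) than in WT (1.44, 138 UMIs), a difference that is taken up below cell by cell.

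The genes for ion channel and vesicle proteins and the noncoding RNAs showed the same order. Kcnip4 stood at 3.04 in IN2 and 0.0701 in the 8 clusters, a log2 ratio of 5.25. Syt1 stood at 1.47 and 0.0249, a log2 ratio of 5.41. Meg3 stood at 3.87 and 0.0546, a log2 ratio of 5.91, and Snhg11, the member with the fewest UMIs, at 0.962 and 0.00942, a log2 ratio of 5.64. The median of the 9 log2 ratios was 5.64, beside a median of 0.08 over all 13722 genes tested. A log2 ratio of at least 1 was reached by 9 of 9 members and by 15.1% of all genes tested, and one of at most -1 by 17.2% of all genes and no member. Because the set was selected on this contrast, nothing is read from that count.

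**Figure D1:**
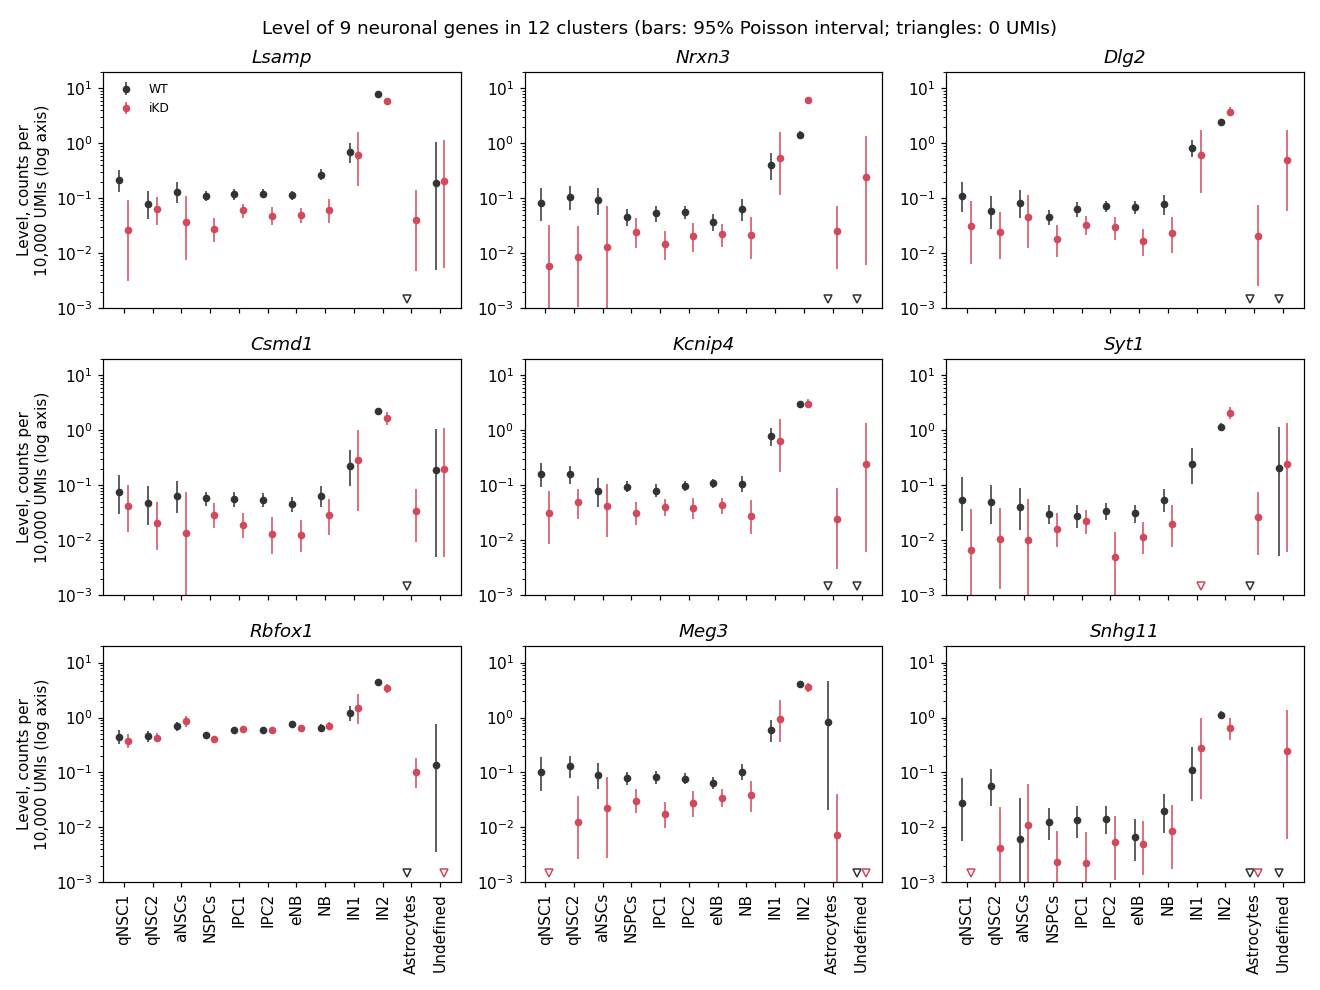
Level of each of the 9 genes (mean over cells of counts per 10,000 UMIs, log axis) in each cluster, WT and iKD shown separately, with bars for the 95% Poisson interval and triangles where no UMI was found. All 9 genes sit highest in IN2 when both genotypes are pooled, with Lsamp at 7.27 there and 0.0912 in the 8 clusters, and Rbfox1 at 4.14 and 0.592.

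Below IN2 and IN1 the order of clusters was weak. Of the 11 neighbouring pairs in each gene's order, between 7 (Rbfox1) and 10 (Lsamp, Nrxn3, Kcnip4, Csmd1 and Dlg2) had overlapping counting intervals. Within the 8 clusters the highest level was 1.55 times (Meg3) to 4.27 times (Snhg11) the lowest. In IN1 the members exceeded the 8 clusters by a log2 ratio of 1.07 (Rbfox1) to 3.84 (Dlg2), resting on 215 member UMIs in all. Of all genes tested, 5.73% had a log2 ratio of at least 1 in IN1. Microglia markers in IN1 cells summed to a median of 358 per 10,000, with no cell under 257. The 134 cells of the Astrocytes cluster held 29 member UMIs and no Snhg11 UMI, a count that allows up to 3, and the 40 cells named Undefined held 0 to 2 UMIs of each gene.

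IN2 cells were shallower than the rest, with a median of 3309 UMIs in WT and 2775 in iKD, beside 8132 and 7114 in the 8 clusters. Their microglia markers were lower as well, at a median of 127 per 10,000, and 7 of the 10 markers had a log2 ratio to the 8 clusters of at most -1. The chemokine receptor gene Cx3cr1, for example, stood at 17.9 in IN2 and 40.9 in the 8 clusters. The mitochondrial share of UMIs was a median of 0.272% in WT IN2 cells and 0.603% in iKD IN2 cells, beside 0.828% and 0.810% in the 8 clusters. The study states limits of 2000 to 5000 genes and at most 2% mitochondrial UMIs per cell. Of the 10804 cells, 10308 lay within them and 496 had fewer than 2000 genes. Only 72 of the 288 IN2 cells lay within them, and in those 72 the median log2 ratio of IN2 to the 8 clusters was 6.36, from 3.80 (Rbfox1) to 7.41 (Lsamp). Of the 3121 member UMIs in the 72 cells, 2810 lay in 12 cells with few microglia markers, by the limit given below. The other 60 cells had a summed member level of 7.81 per 10,000. Cells above that limit but outside the study's limits, 205 in all, had a level of 6.13.

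The UMIs of the 9 genes were concentrated in few IN2 cells. IN2 held 4378 member UMIs, of which 6 cells held 50% and the single highest cell 571. A split of IN2 by microglia markers, a limit chosen after the values were seen, placed 23 cells (11 WT and 12 iKD) under a summed level of 50 per 10,000 and 265 at or above it. The highest cell under the limit was at 43.1 and the lowest above it at 50.6, with 5 cells between 40 and 60. The 23 cells held 3721 of the 4378 member UMIs, 85.0%. By gene this share ran from 74.6% for Rbfox1 to 98.2% for Snhg11. Only 2 cells of the 8 clusters lay under the same limit.

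**Figure D2:**
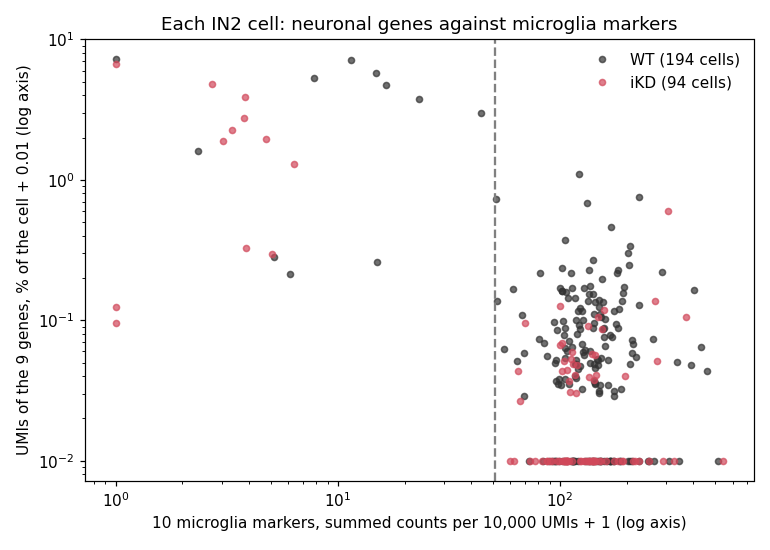
Each point is 1 of the 288 IN2 cells, by the sum of 10 microglia markers per 10,000 UMIs plus 1 (x, log axis) and the share of its UMIs from the 9 genes, in percent plus 0.01 (y, log axis), coloured by genotype, with a dashed line at the limit of 50. The 23 cells left of the line include the highest cell, with 7.25% of its UMIs from the 9 genes, and hold 85.0% of member UMIs, and cells in the bottom row had none.

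The 23 cells with few microglia markers did not form 1 pattern. Of them, 11 (6 WT and 5 iKD) were rich in none of the astrocyte, oligodendrocyte or immature neuron marker lists, taken as a summed level of at least 50 per 10,000, and 10 of these 11 held 8 or 9 of the 9 genes together. In those 10 the members gave between 99 and 571 UMIs per cell, or 2.74% to 7.25% of all UMIs of the cell. The highest cell, a WT cell with 7877 UMIs, held 193 UMIs of Rbfox1, 85 of Meg3, 84 of Lsamp, 75 of Csmd1 and 67 of Kcnip4. The next, a WT cell with 8384 UMIs, held 81 of Lsamp, 79 of Meg3, 52 of Csmd1, 34 each of Kcnip4 and Dlg2 and 33 of Syt1. The vesicle sensor Syt1 and the host gene Snhg11 were found among the 23 cells in this group alone, which held 165 of 165 and 161 of 161 of their UMIs. The eleventh cell, from iKD, held 3 member UMIs. Its immature neuron markers summed to 28.8 per 10,000, under the limit, and its short neuronal transcripts to 46.1. In the other 10 these sums reached at most 5.69 and 14.2.

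The same 11 cells carried other long neuronal genes at high levels, led by Tenm2, a teneurin adhesion protein, at a mean of 62.8 per 10,000, Ptprd, a receptor phosphatase of synapses, at 39.2 and Auts2 at 36.6. Partners of Dlg2 in the postsynaptic density were high too, led by Dlgap1 at 41.3. Rbfox3, the gene of the neuronal nuclear antigen NeuN, was at a mean of 15.2. Short neuronal transcripts were each at a mean of 1.83 or less, as were the granule neuron genes Prox1 (1.19) and Slc17a7 (1.52), and the inhibitory neuron gene Gad1 was at 0.933. The median mitochondrial share was 0.0425% in the 6 WT cells and 0.359% in the 5 iKD cells.

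The 3 cells rich in astrocyte markers (2 WT and 1 iKD) held Lsamp almost alone. They had 377, 109 and 91 Lsamp UMIs and no Rbfox1, Meg3, Snhg11 or Syt1. These 3 cells therefore supplied 53.8% of the Lsamp UMIs of the 23 cells. Gpc5, a glypican, stood at a mean of 169 per 10,000 in them and the glutamate transporter gene Slc1a2 at 81.9.

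The 5 cells rich in immature neuron markers, all from iKD, held most of the Nrxn3. Their Nrxn3 counts were 200, 134, 42, 0 and 0 UMIs, which is 75.2% of the Nrxn3 of the 23 cells. One of them held 40 Rbfox1 UMIs, and none held Kcnip4, Csmd1, Snhg11 or Syt1. Sox11, a transcription factor of newborn neurons, stood at a mean of 20.8 in these cells, and the neuronal tubulin gene Tubb3 at 23.4. The inhibitory neuron genes Gad1 and Gad2 stood at means of 3.60 and 4.16. Summed inhibitory neuron markers were at 14.0, 15.3, 10.7, 0 and 0, in the order of the Nrxn3 counts above. Within this group, only the 3 cells with Nrxn3 thus held inhibitory neuron markers. Which marker list Nrxn3 goes with was not tested in so few cells. No WT cell fell in this group, so the far higher IN2 level of Nrxn3 in iKD moved with 3 cells.

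The 4 cells rich in oligodendrocyte markers (3 WT and 1 iKD) held Dlg2 and no other member, with 16, 13, 11 and 4 UMIs. The myelin gene Mbp stood at a mean of 46.9 in them. Each of the 3 smaller groups thus carried a different part of the set, and only the group of 11 carried it whole.

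**Figure D3:**
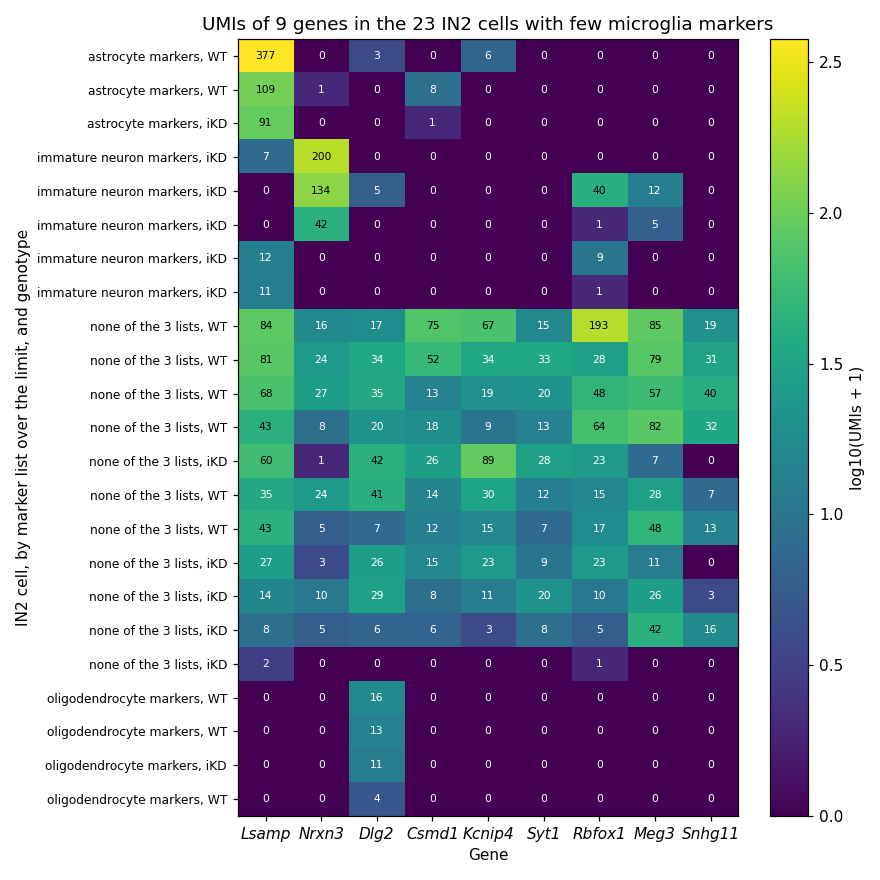
UMIs of each of the 9 genes (columns) in each of the 23 IN2 cells with few microglia markers (rows), grouped by the marker list in which a cell is rich and coloured by log10 of UMIs plus 1. Lsamp fills the 3 astrocyte-marker rows (91 to 377 UMIs), Nrxn3 leads the immature-neuron rows (up to 200), Dlg2 stands alone in the oligodendrocyte rows (4 to 16), and 10 of the other 11 rows hold 8 or 9 genes.

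Outside IN2 the cells with the most member UMIs held far fewer than the highest IN2 cells. The first was a WT cell of NB with 39 Lsamp UMIs and no other member, and the next a WT cell of IN1 with 13 Dlg2 UMIs and 1 of Rbfox1.

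The 265 remaining IN2 cells (183 WT and 82 iKD) held 657 member UMIs, spread over 163 cells with at most 40 in a cell. Microglia markers summed to a median of 135 per 10,000 in these cells, and inhibitory neuron markers were at 0 for all 7 genes. In all 288 IN2 cells, Lhx6, Pvalb and Vip of that list had no UMI. Against the 8 clusters their log2 ratios ran from 1.07 for Snhg11 (3 UMIs, interval -1.24 to 2.67) to 3.69 for Kcnip4, with a median of 3.33. A log2 ratio of at least 1 was reached by 12.8% of all genes tested and one of at most -1 by 18.5%. Without the 23 cells, IN2 stayed the highest cluster for 6 of the 9 genes, the exceptions being Dlg2, Meg3 and Snhg11. Of these 6, only Lsamp and Csmd1 had more than a slight lead. Rbfox1 stood at 1.66, beside 1.25 in IN1, and Kcnip4 at 1.03, beside 0.755 in IN1. Nrxn3 stood at 0.557, beside 0.426 in IN1, and 1 iKD cell held 29 of its 66 UMIs. Syt1 stood at 0.248, beside 0.225 in the cluster named Undefined, where it had at most 2 UMIs.

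Because a shallow cell has fewer chances to show a gene, every cell with at least 2000 UMIs was thinned to 2000 before shares of cells were compared. Of 258 such IN2 cells, 21.7% had an Lsamp UMI, beside 1.66% of 10273 cells of the 8 clusters. For Rbfox1 the shares were 26.0% and 10.1%. For Snhg11 they were 3.49% and 0.175%. Without thinning, when the 8 clusters were the deeper, the shares for Lsamp were 27.8% and 5.80%, and those for Rbfox1 36.5% and 28.0%. Free RNA in a droplet makes up a larger share of a shallower cell, thinning does not remove that, and its part in these shares was not tested.

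At 2000 UMIs, 3 or more of the 9 genes were found together in 14.7% of IN2 cells (38 of 258, exact binomial interval 10.6% to 19.7%) and in 0.0389% of cells of the 8 clusters (4 of 10273, interval 0.0106% to 0.0997%). Among the cells with few microglia markers the share was 52.4% (11 of 21), and among the remaining IN2 cells 11.4% (27 of 237, interval 7.64% to 16.1%). In IN1, where 62.0% of cells had at least 1 member, only 1 of 50 cells had 3 or more. None of the 132 thinned cells of the Astrocytes cluster did, a count whose exact interval reaches 2.76%. At 2000 UMIs joint detection was thus found mainly in IN2, in cells on both sides of the microglia marker limit. Above that limit it was found mostly in WT cells. Without thinning, 3 or more members were found in 8 of 10 IN1 cells under 0.5% mitochondrial UMIs and in 23 of 40 others. In the 8 clusters the unthinned shares were 0.877% and 1.51%.

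Pairs of members were also counted in the thinned cells. The 36 pairs were seen together 465 times in IN2, against 158 from the product of the single shares, a ratio of 2.94. In the remaining IN2 cells the counts were 150 and 76.6, a ratio of 1.96. In the 8 clusters they were 109 and 94.0, a ratio of 1.16. Pairs from 1 cell are not independent of each other, so these ratios carry no interval.

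**Figure D4:**
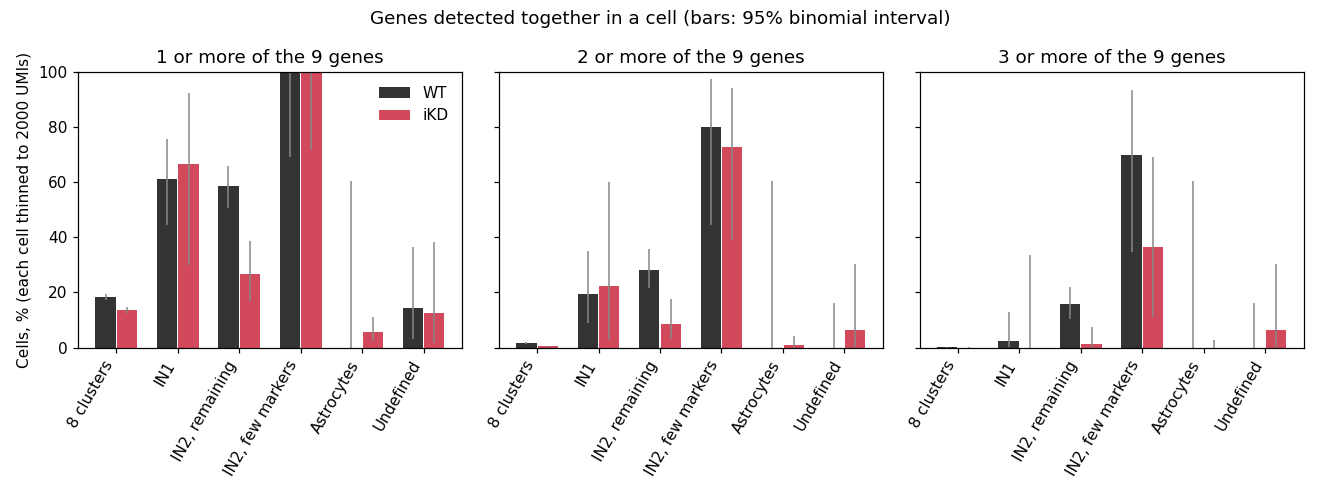
Share of cells, in percent, with 1 or more, 2 or more and 3 or more of the 9 genes (3 panels) after thinning each cell to 2000 UMIs, by group of cells and genotype, with exact 95% binomial intervals as grey lines. At 3 or more genes the remaining IN2 cells stand at 15.7% in WT and 1.41% in iKD, and the 8 clusters at 0.0758% in WT and 0 in iKD.

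Cells of like depth without thinning gave the same order. Between 2000 and 4000 UMIs, 195 cells of the 8 clusters had a member in 26.7% (interval 20.6% to 33.5%) and a summed member level of 1.03 per 10,000. The 162 remaining IN2 cells in this window had a member in 58.0% (interval 50.03% to 65.7%) and a level of 5.57. Their median depth was 2676 UMIs, beside 3384 in the 8 clusters, so the shallower group had the larger share.

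Within the remaining IN2 cells the members moved with the mitochondrial share and with genotype. In WT, 113 cells under 0.5% mitochondrial UMIs had a summed member level of 8.83 per 10,000, and 37.2% of them held 3 or more members. The 70 WT cells at or above 0.5% had a level of 7.29, and 12.9% held 3 or more. In iKD the levels were 3.91 (39 cells) and 1.51 (43 cells). Both genotypes had the higher level on the low mitochondrial side, and iKD was below WT on both sides. These levels rest in part on single cells. One iKD cell held 34 of the 68 member UMIs of the low side, and 1 WT cell 40 of the 181 of the high side. In the 8 clusters, both genotypes together, the summed member level was 1.04 under 0.5% and 0.946 at or above it. Without Rbfox1 it was 0.370 and 0.371 there, beside 5.77 and 3.62 in the remaining IN2 cells of both genotypes. Cells holding RNA of both Xist and Y-linked genes, as a droplet with cells of both sexes would, made up 7 of 265 remaining IN2 cells (2.64%, interval 1.07% to 5.37%) and 143 of 10292 cells of the 8 clusters (1.39%, interval 1.17% to 1.63%). These shares were not thinned, and IN2 cells, at a median of 3102.5 UMIs beside 7622.5 in the 8 clusters, had fewer chances to show both. The part of doublets in the member counts was not tested beyond this.

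The question of the study, what loss of NSPC-derived VEGF changes, led to the comparison of iKD with WT. Over the 8 clusters all 9 genes had fewer UMIs in iKD, and for Rbfox1 the levels differed little. Lsamp was at 0.131 per 10,000 in WT (536 UMIs) and 0.0487 in iKD (170 UMIs), a log2 ratio of -1.27 (interval -1.53 to -1.02). Meg3 was at 0.0812 and 0.0266 (330 and 91 UMIs), a log2 ratio of -1.32 (interval -1.67 to -0.98). Kcnip4 was at 0.1004 and 0.0382 (425 and 142 UMIs), a log2 ratio of -1.20 (interval -1.48 to -0.92). These 3 had the lowest ratios of the set.

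The other genes followed. Nrxn3 had 218 UMIs in WT and 64 in iKD (log2 ratio -1.14, interval -1.57 to -0.73). Dlg2 had 276 and 90 (-1.12, interval -1.48 to -0.77), and Csmd1 had 230 and 69 (-1.11, interval -1.52 to -0.71). Syt1 had 144 and 50 UMIs (-0.87, interval -1.37 to -0.40) and Snhg11 58 and 16 (-0.77, interval -1.67 to 0.05). At such low levels the added 0.01 shrinks a ratio, and with no pseudocount these 8 genes lay between -1.27 (Syt1) and -1.75 (Snhg11).

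Rbfox1 stood apart, with 2653 UMIs in WT and 2137 in iKD and a log2 ratio of -0.07 (interval -0.15 to 0.01). It made up 54.5% of member UMIs in WT and 75.5% in iKD. Among the other 8 the proportions were alike in both genotypes, with Lsamp, for example, at 24.2% of their UMIs in WT and 24.6% in iKD. Summed over those 8, WT had 2217 UMIs and iKD 692, a log2 ratio of -1.41 (interval -1.53 to -1.28).

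Of all 13722 genes tested, 18 (0.131%) had a log2 ratio of at most -1 in this comparison and 28 (0.204%) one of at least 1. Members made up 6 of the 18, namely Meg3, Lsamp, Kcnip4, Nrxn3, Dlg2 and Csmd1. With no pseudocount and 13701 genes, 1.42% lay at or below -1 and 1.09% at or above 1. The median over all genes was 0.01. The members were not chosen on the genotype contrast, but this comparison was added after values had been seen, and with 1 library a genotype the difference compares 2 libraries and not 2 conditions.

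The lower counts in iKD were found in each of the 8 clusters. Summed over the 8 genes without Rbfox1, the log2 ratio lay between -2.44 and -1.21 across clusters, and its interval was below 0 in all 8. Taken gene by gene, the ratio was below 0 in 63 of 64 combinations of gene and cluster, and the whole interval lay below 0 in 29 and above 0 in none. Of all genes tested, 46.6% to 50.7% had a ratio below 0 in a single cluster. In qNSC1, iKD had no Meg3 and no Snhg11 UMI in 158 cells, beside 9 and 3 UMIs in 134 WT cells, a count of 0 that allows up to 3. Rbfox1 was lower in 5 of 8 clusters, from -0.23 to 0.28. Separating cells by the sex read from their RNA gave a summed log2 ratio of -1.41 in female cells and -1.48 in male cells.

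**Figure D5:**
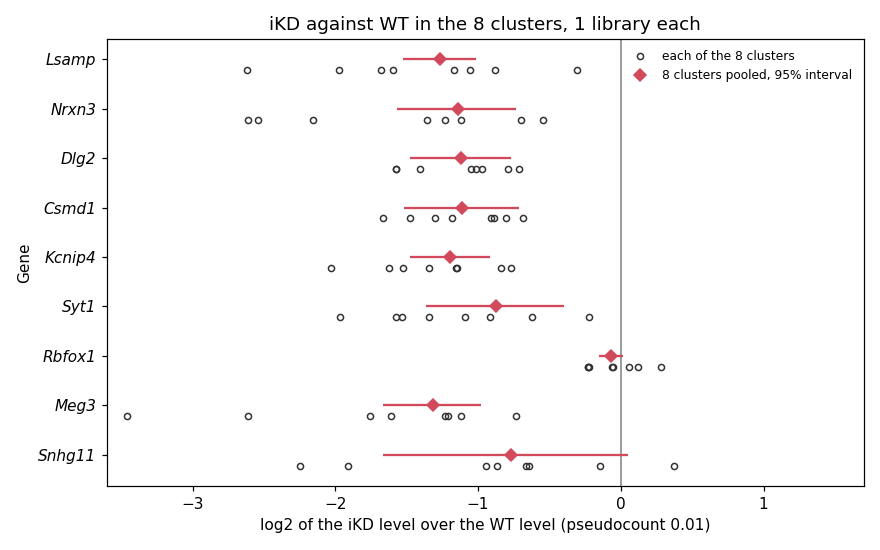
log2 ratio of the iKD to the WT level (pseudocount 0.01) of each of the 9 genes, 1 row a gene. Diamonds are the 8 clusters pooled, with the 95% counting interval as a line, and open circles are each of the 8 clusters. Pooled values lie between -1.32 (Meg3) and -0.77 (Snhg11) for 8 genes and at -0.07 for Rbfox1, and the farthest Meg3 circle is qNSC1, with 0 iKD UMIs.

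In IN2 the genotypes did not differ in 1 direction. Of the 9 genes, 3 had an interval above 0 (Nrxn3 2.10, interval 1.82 to 2.39, Syt1 0.86 and Dlg2 0.61), 4 had one below 0 (Snhg11 -0.81, Lsamp -0.46, Csmd1 -0.45 and Rbfox1 -0.41) and 2 spanned 0 (Kcnip4 0.03 and Meg3 -0.19). The median was -0.19. These intervals leave out the spread between cells, and 2 (Nrxn3) to 5 (Dlg2) cells held 50% of a gene's IN2 UMIs. Among all genes tested 13.1% had a log2 ratio of at least 1 and 13.9% one of at most -1, so large ratios were common in a comparison of 94 with 194 cells.

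In the remaining IN2 cells, without the 23, the summed member level was 8.24 in WT (562 UMIs) and 2.65 in iKD (95 UMIs), a log2 ratio of -1.63 (interval -1.96 to -1.32). Kcnip4 had 96 UMIs in WT and 2 in iKD (log2 ratio with no pseudocount -4.23, interval -7.30 to -2.34). Meg3 had 55 and 5, Csmd1 54 and 4 and Dlg2 42 and 3 (log2 ratios -2.56, -2.64 and -2.64). Lsamp had 118 and 20 UMIs (-1.52) and Rbfox1 135 and 28 (-0.95), and Nrxn3 33 in each library (0.37, interval -0.37 to 1.11). A single iKD cell held 29 of the 33 iKD UMIs of Nrxn3, and without it the ratio was -3.05 (interval -5.01 to -1.56). Some other lists were lower in iKD in these cells too. At or below -1 were 4 of 5 astrocyte markers (median -2.07) and 3 of 3 oligodendrocyte precursor markers (median -3.15). So were 2 of 4 oligodendrocyte markers and 16 of 17 other long neuronal genes (median -2.08). Further lists were split or higher in iKD. Of 7 choroid plexus markers, 3 were at least 1 and 1 was below 0. Of 6 neural stem cell markers, 2 were at least 1 and 2 at most -1. The 1 mural marker tested was at 2.50, which rests on 1 UMI in all of IN2. Of the immature neuron markers, 2 of 2 were above 0. In these cells the oligodendrocyte precursor, neural stem cell and immature neuron markers summed to means of only 0.265, 0.191 and 0.0874 per 10,000. The ratios of those lists therefore rest on few UMIs. The part of other cell types in the members' difference was not tested.

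Syt1 had 26 UMIs in WT and 0 in iKD there, and at the limit of 3 UMIs that a count of 0 allows the ratio was -1.55. With Syt1 at that limit and Snhg11, which had 3 and 0 UMIs, left out, the median of 8 genes was -2.06. A log2 ratio of at most -1 was found for 19.7% of all genes tested in these cells and one of at least 1 for 11.1%. After thinning to 2000 UMIs, 3 or more members were found in 15.7% of WT (26 of 166) and 1.41% of iKD (1 of 71) remaining IN2 cells.

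Related genes, from lists drawn up with earlier results of these data known, were measured in the same way. The minimum of 50 UMIs was taken over all cells, IN2 included, so a gene can pass it through its IN2 counts. Counts of genes high in IN2, by list or by length, are therefore a description. Of 17 other long neuronal genes, 17 had a log2 ratio of IN2 to the 8 clusters of at least 1, with a median of 5.33. They were led by Pcdh9, a protocadherin, at 5.78 in IN2 and 0.0455 in the 8 clusters (6.70). In iKD against WT over the 8 clusters all 17 had a ratio below 0, with a median of -0.67, beside 46.5% of all genes tested with a ratio below 0. At or below -1 lay 2 of the 17, Nrg3, a neuregulin (-1.27), and Cntnap2, a neurexin-like protein (-1.09).

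Across all 13519 tested genes with a span, kept by UMIs over all cells with IN2 included, length went with the IN2 ratio. Of 203 genes of 500 kb or longer, 89.2% had a log2 ratio to the 8 clusters of at least 1, beside 49.5% of the 1683 genes from 100 to 500 kb, 10.3% of the 8059 from 10 to 100 kb and 5.43% of the 3574 under 10 kb. In iKD against WT over the 8 clusters, 10 of the 203 longest genes lay at or below -1, of which 5 were members, and 8 of all the shorter ones did. Without the 7 long members, 5 of 196 did, and the IN2 ratio was at least 1 in 88.8% of the 196. The 10 long genes on a list of those that microglia express were at a median log2 ratio of 0.87 in IN2, so they were also higher there, but by much less than the neuronal ones. Their median in iKD against WT was 0.06.

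Partners and relatives of single members varied. For Nrxn3, the postsynaptic ligand gene Nlgn1 stood at 2.07 in IN2 and 0.0303 in the 8 clusters (log2 ratio 5.69), and Lrrtm4 had a ratio of 5.50. For Dlg2, all 8 partners in the postsynaptic density that were tested had a ratio of at least 1, with a median of 4.45, led by Dlgap1 (5.41). For Kcnip4, 4 of 5 genes of the Kv4 channel complex did, the pore subunit gene Kcnd2 highest at 5.63 and Kcnd1 at -0.12. For Syt1, 4 of 6 genes of vesicle fusion did, with Snap25 at 3.89 and Vamp2, at 0.346 in IN2 and 0.347 in the 8 clusters, at -0.00.

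Among paralogs of the members, 14 of 17 had an IN2 ratio of at least 1, with a median of 2.29. Csmd3, which had 285382 UMIs in the 8 clusters, was at 59.3 in IN2 and 34.97 in the 8 clusters (0.76). In iKD against WT over the 8 clusters Csmd3 stood at 0.16 and Csmd1 at -1.11. At the Meg3 locus the noncoding RNA Rian had a ratio of 3.51, and Dlk1 and Rtl1 were at 0 UMIs in IN2 and in the 8 clusters. Of 7 short neuronal transcripts tested, 6 had an IN2 ratio of at least 1, led by Tubb3 at 5.28, and Calm2 was at -0.95. Tubb3 had 97 UMIs in IN2 and 19 in the 8 clusters, so its IN2 counts weighed in its passing the minimum.

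In the comparison of iKD with WT over the 8 clusters other lists moved too. The 8 postsynaptic density partners all had ratios below 0 (median -0.36), as had 6 of 7 short neuronal transcripts (median -0.31), beside 46.5% of all genes tested. All 7 choroid plexus markers were above 0 (median 1.31), with Ttr, the transthyretin gene, at 574 UMIs in WT and 36074 in iKD, and the Astrocytes cluster that carries them held 4 WT and 130 iKD cells. The 10 microglia markers had a median of -0.01 and a range from -0.22 to 0.05. The part of RNA shed by other cells in the members' counts in the 8 clusters was not tested.

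The 10 genes whose levels followed the members most closely were named by the correlation of log2 levels with the mean of the members over 21 groups of cluster and genotype that had at least 20 cells. They were Gpr158 (Pearson r 0.987), Slc24a2 (0.982), Kcnd2 (0.981), Lrrc7 (0.980), Adgrl3 (0.974), Hs3st4 (0.973), Kcnq3 (0.973), Anks1b (0.972), Mdga2 (0.972) and Lrrtm4 (0.971). Among the members themselves r with the mean ran from 0.831 for Rbfox1 to 0.976 for Snhg11. The groups share 2 libraries and differ in depth, so these values are a description. By size of the IN2 ratio alone, the leading genes at a level of at least 0.5 included Pcdh9 (6.70), Gpc5 (6.69), Slc24a2, Auts2, Gabrb1, Meis2, Nkain2, Kirrel3 and Ntm (6.23), and Lsamp ranked 14 among all genes tested.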

How the data were processed

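Single-cell 3′ RNA libraries of EYFP+ DG cells were analysed, 1 per genotype (WT and iKD, labelled KO by the submitters). The authors deposited 1 table per cluster of natural log values, the log of 1 plus counts per 10,000 UMIs of each cell. Per the study's methods, reads were demultiplexed, aligned and deduplicated, and cells were filtered, integrated and clustered. The submitters' processing notes name Cell Ranger 7.0.1, CASAVA 1.8.2, HISAT2 2.0.6, Subread, featureCounts and Seurat 4.1.1. They list GRCh38, a human build, for these mouse cells. The mouse build used, and whether intronic reads were counted, are not given in the sources used here. Cluster names are the depositors'.

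UMI counts were recovered from the log values, and 100% of 32261786 values above 0 lay within 0.01 of a whole UMI. All deposited cells were used, no column was left unused, and no doublet caller was run. Totals were 44142118 UMIs in WT and 37451839 in iKD. No cell column was listed more than 1 time.

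Levels are means, over cells, of counts per 10,000 UMIs. Log2 ratios carry a pseudocount of 0.01 and were taken over 13722 genes with at least 50 UMIs. Poisson and binomial intervals are at 95% and cover counting error only. With 1 library a genotype no test was run, and p-values are not given. Shares of cells were compared after thinning to 2000 UMIs. Analyses used Python 3.11.15, numpy 2.4.6, scipy 1.17.1, pandas 2.3.3 and matplotlib 3.10.9, and were tested on simulated data. Gene spans are from GENCODE M21 and promoter windows from RefSeq.

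The members, gene lists and marker lists were chosen with earlier results of these data known. Genes named beside the members are the up to 3 highest in IN2 of each list and those at 0, the 10 most correlated with the members and the 10 with the largest IN2 ratio. Some genes that this rule names are not reported here. Genes named by their iKD to WT ratio or their level in the 23 cells with few microglia markers, and Kcnd1, were chosen after their values were seen, as were the limit of 50 per 10,000 for microglia markers, the 0.5% mitochondrial limit and the iKD to WT comparison in the 8 clusters. Alternatives changed the pseudocount, the depth handling, the cells and the sex or genotype kept.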

Additional observations from a re-analysis of the deposited data

Results flagged for a closer look

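Of the 9 genes, 3 had iKD to WT ratios of opposite direction in IN2 and in the 8 clusters. The log2 ratio of Nrxn3 was 2.10 in IN2 and -1.14 in the 8 clusters, that of Dlg2 was 0.61 and -1.12, and that of Syt1 was 0.86 and -0.87. With 1 library per genotype the difference between the 2 groups of cells was not tested. All 3 IN2 values moved with the 23 cells that carry few microglia markers. Of the 428 Nrxn3 UMIs of iKD IN2 cells, 395 lay in 12 such cells.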

How the results depend on the processing

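No paired analysis was possible because each genotype is a single library. All 9 genes stayed highest in IN2 with summed UMIs, thinned cells, cells of 2000 to 4000 UMIs, either genotype alone and without the 5 IN2 cells of each genotype that held the most member UMIs, 8 did in cells of either sex alone, and 6 did without the 23 cells of few microglia markers. The median log2 ratio of IN2 to the 8 clusters, 5.64, became 4.21 and 5.97 with a pseudocount of 0.1 and 0.001, 5.90 with summed UMIs, 5.40 after thinning, 4.84 in cells of 2000 to 4000 UMIs, 5.23 in female and 4.99 in male cells, 5.05 in WT and 6.44 in iKD, 4.53 without the 5 highest cells of each genotype and 3.33 without the 23 cells. The median iKD to WT ratio in IN2, -0.19, became -0.63 with summed UMIs, -0.41 after thinning, -0.35 in female and -1.21 in male cells, -0.93 without the 5 highest cells and -2.56 without the 23 cells, where Syt1 and Snhg11 had 0 iKD UMIs (-2.06 with Syt1 at the limit of 3 UMIs and Snhg11 left out). Over the 8 clusters the median of 8 genes without Rbfox1, -1.13, became -0.39 and -1.41 with a pseudocount of 0.1 and 0.001. The share of IN2 cells with 3 or more members, 14.7%, became 7.64% and 41.1% at 1000 and 4500 UMIs, 23.6% without thinning, 26.7% and 6.98% at 2 and 4 members, 4.26% when a member needed 2 UMIs, 6.10% in iKD and 10.4% in female cells. The iKD to WT ratio in IN2 turned for Snhg11 in cells of 2000 to 4000 UMIs (0.037), for Lsamp (0.62) and Syt1 (-0.47) in female cells, for Nrxn3 in male cells (-2.92), for Dlg2 (-1.57), Snhg11 (0.27) and Syt1 (-1.45) without the 5 highest cells, and for Dlg2 (-2.64) and Syt1 (-5.21, with 0 iKD UMIs and no bound) without the 23 cells. Kcnip4, at 0.03 in IN2 with an interval that spanned 0, stood at -4.06 without the 23 cells and is not in that list. Apart from fewer cells or UMIs, the cause of these shifts was not tested. Of the other single-gene values, 126 moved and 93 did not. In the 8 clusters 8 of the 9 genes had a level under 0.1 per 10,000, so single-cluster ratios rest on few UMIs.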
